A study of Rattus norvegicus with 10 samples.

Results

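The genes described here encode the initiation and elongation factors of protein synthesis, taken as every gene whose single symbol in the array annotation starts with Eif or Eef. There were 61 such genes among 14217 genes named on the array, and each was represented by the probe set of highest mean over the 10 arrays (94 probe sets in all, with 37 genes on 1 probe set). Of the 61, 57 lay among the 15521 probe sets tested, which had a mean log2 value of at least 3.99. The 4 below that level were the eIF4E-binding protein genes Eif4ebp1 and Eif4ebp3 (means of 1.68 and 2.53), the cap-binding protein gene Eif4e2 (2.06) and the methyltransferase gene Eef1akmt4 (2.82), and the nearest gene above it was Eef1akmt1 at 4.56.

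Expression was measured with 1 array per animal in the prefrontal cortex (areas Fr1 and Fr2, olfactory bulb removed) of 10 male Lewis rats, an inbred strain. The rats had no treatment, carried no stated allele and came from 40 animals tested for behaviour, and they were killed 6 days after the last test. They form 1 group, and each was scored for startle to a loud sound, prepulse inhibition (how far a soft sound beforehand lessens that startle), locomotion and sugar feeding, and 7 of them on a plus maze. By its title the series asks how transcripts in the brain of inbred rats go with their behaviour, and no unit is given for any score.

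In initiation, eIF2 brings the initiator tRNA to the small ribosomal subunit, which eIF3 and the eIF1 proteins hold ready, while the eIF4 proteins bind the mRNA cap and unwind the leader. eIF2 is recharged by the exchange factor eIF2B, and kinases that phosphorylate its alpha subunit block this step under stress. In elongation, eEF1A delivers aminoacyl-tRNA and eEF2 moves the ribosome along the mRNA. In neurons these steps are regulated by synaptic activity, and eEF2 kinase and the eIF4E-binding proteins are well-studied points of that control.

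On the probe sets used, the factor genes differed little between rats. The median ratio of the highest to the lowest rat was 1.31-fold over the 57 genes, against 1.35-fold over all 15521 probe sets, and the median SD between rats was 0.13 log2 in both. A span above 1.5-fold was found for 6 of the 57 (10.5%), against 30.4% of all probe sets, and a span above 2-fold for 0, against 9.29%. The sets are unlike in 1 respect. Each of the 57 is the probe set of highest mean of its gene, while all probe sets include further ones of the same genes. Further probe sets of factor genes that passed the level filter, 21 in all, spanned 1.07-fold (Eif4g1) to 1.98-fold (Eif3l). A span above 1.5-fold was found on a further probe set of Eif1a, Eif3a, Eif3j, Eif3l, Eif4e, Eif4g2, Eif4h and Eif5a2. The rest of the 21 stayed below it. On the probe set used, each of these named genes spanned less than 1.5-fold. The low share of factor genes above 1.5-fold thus depends on the probe set chosen for each gene. The spread of all probe sets depends on level. When they were divided by mean into 4 equal bands, 30 of the 57 genes lay in the highest band, with a median SD of 0.12, as for all probe sets there. The 7 factor genes in the lowest band had a median SD of 0.067 against 0.15. In the bands between, the medians were 0.16 for 6 factor genes against 0.16, and 0.13 for 14 against 0.14. The values give levels of RNA in a piece of tissue, so that fewer cells of a type and less RNA per cell cannot be told apart.

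The genes of widest span were Eif1ad (1.79-fold), Eif2b3 (1.66), Eif4ebp2 (1.60), Eif2s3y (1.53), Eefsec (1.51) and Eif2b1 (1.51). Eif1ad ran from 6.24 log2 in rat 9 over a median of 6.70 to 7.08 in rat 10. The narrowest were Eif2d (1.07-fold), Eif2ak4 (1.08), Eif3i (1.14) and Eif4a1 (1.15). By role, the median span was lowest for the eIF2 kinases (1.20-fold, 4 genes) and highest for the eIF4E-binding protein group, where it covered 2 measured genes (1.43-fold).

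**Figure D1:**
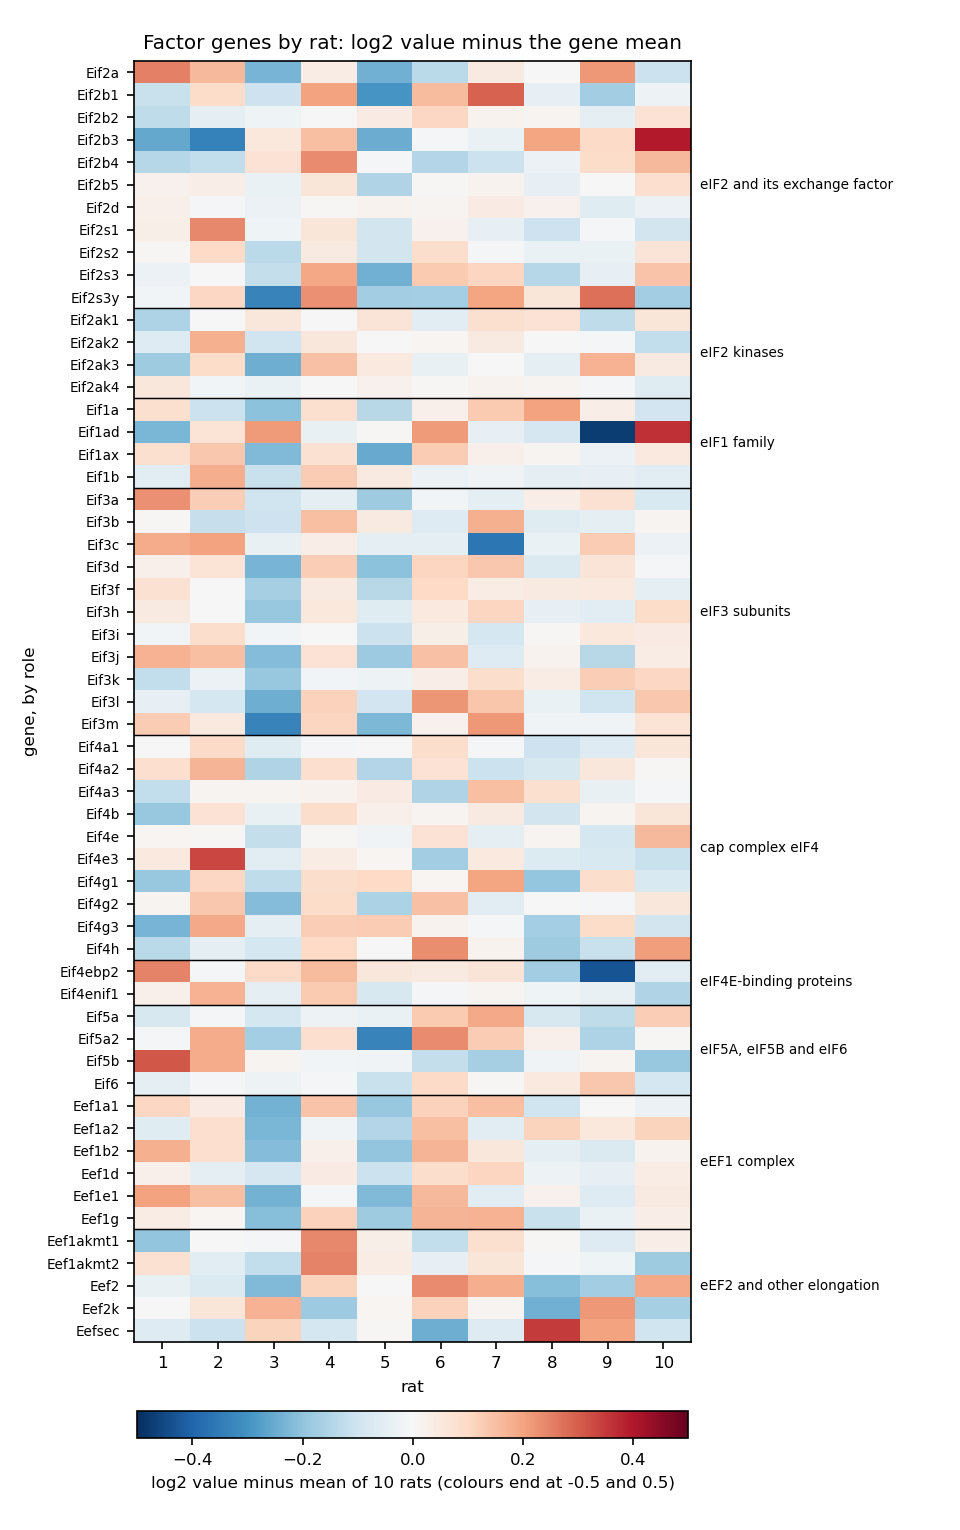
Heat map of the 57 factor genes that passed the level filter, grouped by role, with 1 column per rat. Colour is the log2 value minus the gene's mean over the 10 rats, blue below and red above it. Rat 3 holds the lowest deposited value of 21 genes (36.8%, against 23.8% of all probe sets), among them 7 of 11 eIF3 and 5 of 6 eEF1 genes.

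**Figure D2:**
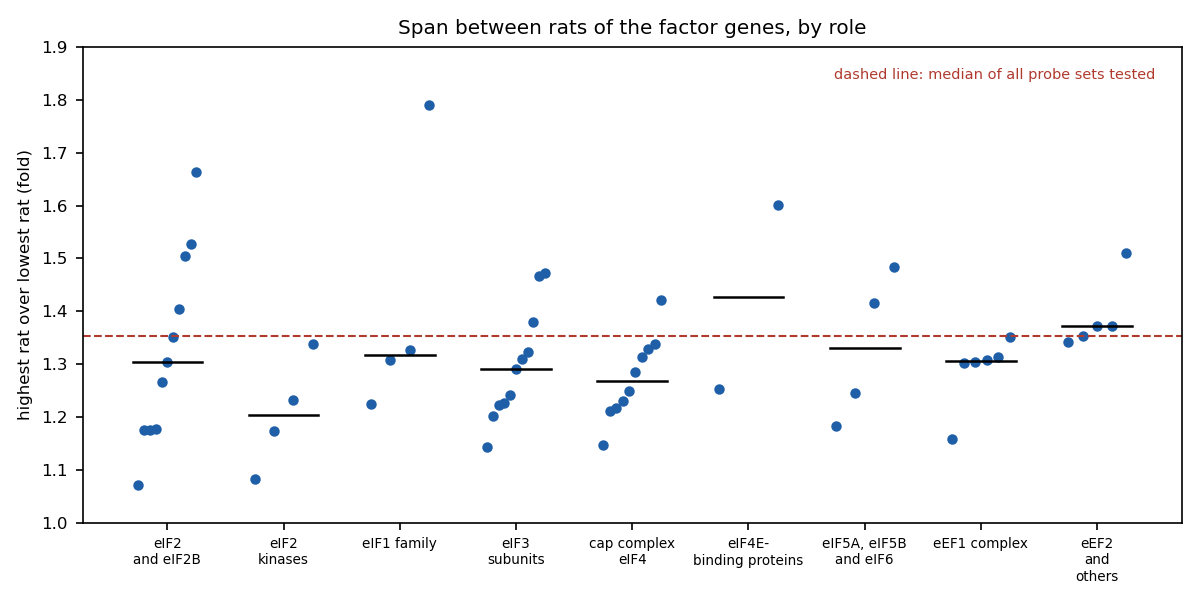
Ratio of the highest to the lowest rat (fold, vertical axis) for each of the 57 factor genes, 1 point per gene, by role. Black bars are role medians and the dashed line is the median of all 15521 probe sets tested (1.35-fold), and Eif1ad in the eIF1 family lies highest at 1.79-fold.

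Promoter sequences were compared because groups of these genes varied together across rats, as given further on. RefSeq promoter windows of the GRCr8 assembly, from 250 bases before to 50 after a transcript start, were found for 56 of the 61 genes (not Eif4e3, Eif4ebp1, Eif4b, Eif3h and Eef1d). The letters CACGTG, the E-box core recognised by Myc, Max and related factors, were searched in them; the motif reads the same on both strands. It occurred in 12 of the 56 genes (21.4%) and in 7.08% of all 27457 genes with a window of this length. Above the level filter it occurred in 11 of 53 factor genes (20.8%) and in 10.3% of 7103 genes with 1 symbol and a window. The stretches below, from before the start sites, belong to genes whose values are given in the results. Capitals mark CACGTG.
Eif4e, chr2:229740661-229740690, plus strand: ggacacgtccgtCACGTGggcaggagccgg
Eif4g1, chr11:93746404-93746433, minus strand: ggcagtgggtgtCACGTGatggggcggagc
Eef2, chr7:9189297-9189326, minus strand: cacccgcgccgtCACGTGacgtgcccaacc
Eif3b, chr12:19334808-19334837, minus strand: actcgctgcacgCACGTGgctccgcgctag
Eif5a2, chr2:113657651-113657680, plus strand: cagggcgagcttCACGTGactgggcgggac
Eif4e and Eif5a2 each held a second copy in their windows, and Eif4g1 had one after the start. The other genes with the motif were Eef2k, Eif3a, Eif3f, Eif4h, Eif5a, Eif1b and, below the level filter, Eef1akmt4.

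The transcripts of many translation genes start with a run of pyrimidines (a terminal oligopyrimidine tract) through which growth signals act on their translation. A run counted here was at least 8 pyrimidines (C or T on the transcript strand) in the first 30 bases. It was found in 8 of the 56 factor genes (14.3%) and in 11.7% of all 27457. Above the level filter it was found in 8 of 53 factor genes (15.1%) and in 9.46% of the 7103 tested genes. The longest runs were those of Eif2s3, Eef1b2 and Eif3f, with 16, 15 and 14 bases, and are shown as the first 30 bases of the transcript with the run in capitals.
Eif2s3, chrX:62933670-62933699, minus strand: TTTTCCTTTTCTCTCTgagcaagatggctg
Eef1b2, chr9:72074091-72074120, plus strand: ggCCCTTTTTCTCCCTCagcgctggccgcg
Eif3f, chr1:172369062-172369091, plus strand: ctagCCTCTCTCTTTCTCggcaagatggca
The run begins at the first base in Eif2s3 and Eif2a, and at bases 3 to 6 in Eef1akmt1, Eef1b2, Eif3f and Eif3m. In Eif3i and Eif1ad it begins at bases 14 and 21. A terminal tract starts the transcript, so the 8 genes are those with a run near the start and not a set of genes with such tracts. The median SD between rats was 0.12 for the 11 measured genes with CACGTG and 0.13 for the 42 without it. It was 0.14 for the 8 genes with a pyrimidine run and 0.13 for the 45 without. The median pairwise r across rats, as deposited, was 0.17 for the genes with CACGTG and 0.20 for those without it. For the genes with a pyrimidine run it was 0.28, and for those without 0.19. These differences were not tested. Each match describes these letters in these windows and no more.

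In the group of eIF2 and its exchange factor, which by symbol also holds Eif2a and Eif2d, 11 of 11 genes were measured, with a median span of 1.30-fold. Eif2s1, the alpha subunit that the stress kinases phosphorylate, ran from 10.03 to 10.37 log2 with a median of 10.12 (mean 10.13 ± 0.10, SD, n = 10). Rat 2 lay highest and rat 8 lowest. Eif2s3y, the Y-linked copy of the gamma subunit, had 9.48, 9.84 and 10.09 as its lowest, median and highest values, with rat 3 lowest and rat 9 highest. Because it is a near copy of Eif2s3, the values of both are uncertain where probes could read either transcript.

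The subunits of eIF2B differed in how much they varied. Eif2b5, the catalytic epsilon subunit, stayed between 5.75 and 5.99 (median 5.91), and Eif2b2, the beta subunit, spanned 1.18-fold. Eif2b3, the gamma subunit, ran from 5.62 in rat 2 over a median of 5.98 to 6.36 in rat 10. Eif2b1, the alpha subunit, ran from 6.89 in rat 5 over 7.15 to 7.48 in rat 7. The highest rat of Eif2b3 and of Eif2b5 was the same, rat 10, while Eif2b1 and Eif2b2 had their highest values in rats 7 and 6.

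All 4 kinases of eIF2 alpha were measured. Eif2ak1, the heme-regulated kinase, ran from 9.92 to 10.15 with a median of 10.10. Eif2ak2, the double-stranded RNA-activated kinase PKR, ran from 6.18 to 6.48 (median 6.30). Eif2ak3, the endoplasmic reticulum stress kinase PERK, ran from 7.13 in rat 3 to 7.55 in rat 9 with a median of 7.40. Eif2ak4, the amino-acid sensor GCN2, ran from 6.14 to 6.25 (median 6.20), the narrowest span of a kinase. The median pairwise r between the kinases across rats was -0.01 as deposited and 0.03 after quantile normalization.

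In the eIF1 family, Eif1a, Eif1ax and Eif1b spanned 1.22-fold to 1.33-fold. Eif1a and Eif1ax encode closely similar proteins, so their separation by probes is uncertain. All 11 measured subunits of eIF3, the scaffold that joins the small ribosomal subunit to the mRNA complex, spanned 1.14-fold (Eif3i) to 1.47-fold (Eif3c). Eif3c ran from 10.63 over 10.96 to 11.19, with rat 7 alone at the low end and every other rat at 10.95 or above. Its other probe set, with a mean of 10.93 against 10.99 for the one used, spanned 1.23-fold. As deposited, the lowest rat for 7 of the 11 eIF3 genes was rat 3, which was lowest for 23.8% of all probe sets. With arrays centred on their medians rat 3 was lowest for 3 of the 11 (15.8% of all probe sets), and after quantile normalization for 4 (14.3%). Among the 7 was Eif3m, which ran from 10.48 over 10.85 to 11.03.

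Of the cap complex group, which by symbol also holds Eif4a3, 10 of 11 genes were measured. Eif4e, the cap-binding protein, stayed between 11.68 in rat 3 and 11.96 in rat 10 (median 11.80; mean 11.79 ± 0.079, SD, n = 10). Eif4g1, the scaffold that links the cap to the ribosome, had 9.73, 9.97 and 10.12 as its lowest, median and highest values. The helicase Eif4a1 ran from 10.69 to 10.89 (median 10.79), and its neuronal paralogue Eif4a2 from 13.27 to 13.59 (median 13.45). Eif4ebp2, the main eIF4E-binding repressor of the brain, spanned more than any measured cap complex gene. Its values ran from 8.01 in rat 9 over 8.50 to 8.69 in rat 1. Eif4ebp1, the repressor best known from other tissues, stayed between 1.66 and 1.70, below the level filter, and was not tested.

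Eif5a, which carries hypusine and eases peptide bond formation, ran from 12.03 to 12.34 with a median of 12.13. Its paralogue Eif5a2 had a wider span, from 8.71 in rat 5 over 9.06 to 9.28 in rat 6. Eif6, which keeps the ribosomal subunits apart, ran from 9.44 to 9.68 (median 9.54). Eif5b, the factor for subunit joining, ran from 10.17 in rat 10 over 10.35 to 10.68 in rat 1.

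All 6 genes of the eEF1 group, which by symbol includes Eef1e1, were measured. Eef1a1, the widespread form of eEF1A, ran from 14.48 to 14.86 with a median of 14.74 (mean 14.71 ± 0.14, SD, n = 10), and Eef1a2, the neuronal and muscle form, from 12.48 to 12.86 with a median of 12.72. Rat 3 was lowest for both and for Eef1b2, Eef1e1 and Eef1g, which left Eef1d as the exception (lowest in rat 5). It was thus lowest for 5 of the 6 as deposited, against 23.8% of all probe sets. With arrays centred on their medians rat 3 was lowest for 1 of the 6 (15.8% of all probe sets), and after quantile normalization for 3 (14.3%). Eef2, the translocase, ran from 12.94 in rat 3 over 13.14 to 13.39 in rat 6. Eef2k, the kinase that stops eEF2, ran from 6.79 in rat 8 over 7.04 to 7.24 in rat 9. Eefsec, the factor for selenocysteine, ran from 6.98 in rat 6 over 7.16 to 7.58 in rat 8.

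Facts of the arrays bear on these values. Array medians ran from 3.91 to 4.02 log2 and upper quartiles from 8.12 to 8.25. Markers of cortical excitatory neurons were present, with 9 of 9 on the array above the filter (Slc17a7, the vesicular glutamate transporter, at 12.5 to 12.9), and 0 of 5 choroid plexus and 1 of 4 olfactory bulb markers passed. Of 15 striatal markers 11 passed, with a mean centred score of -0.51 to 1.22 that was highest in rat 7. The meningeal score (9 of 12 markers passed) ran from -0.74 to 1.11.

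Rat 3 held the lowest value for 21 of the 57 factor genes (36.8%), where it did so for 23.8% of all probe sets, and the highest for 0. Rat 7 held the highest value for 13 (22.8%, against 13.1%) and rat 2 for 12 (21.1%, against 20.6%). The lowest place depended on the scaling. With arrays centred on their medians, rat 5 was lowest for 23 genes (40.4%, against 24.6%) and rat 3 for 8. After quantile normalization rat 1 was lowest for 13 (22.8%, against 14.4%) and rat 3 for 10. Under all 3 scalings rat 3 was highest for 0 factor genes (5.46%, 6.09% and 9.57% of all probe sets) and rat 4 lowest for 0 (6.54%, 5.11% and 9.16%). Rat 3 also had the highest immediate-early gene score (0.94 log2 above the mean of the rats), the lowest myelin score (-0.58) and a meningeal score of 0.83, and the part of these in its low values was not tested.

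**Figure D3:**
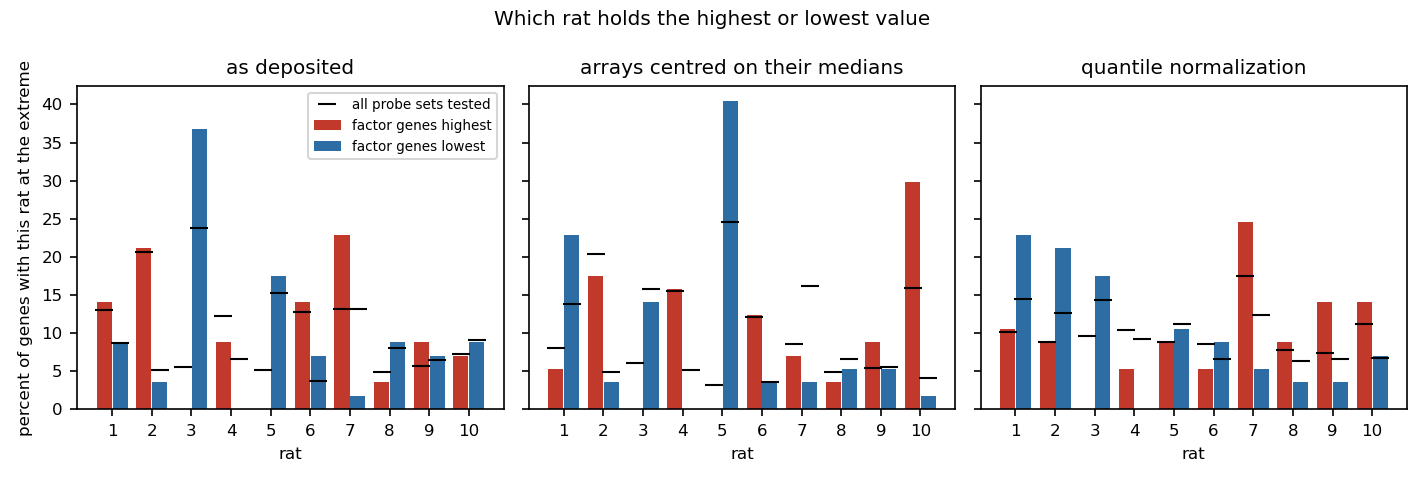
Percent of the 57 factor genes with the highest (red) or lowest (blue) value in each rat, under the deposited values, arrays centred on their medians and quantile normalization. Black marks give the same percent over all 15521 probe sets tested, and the rat most often lowest changes from rat 3 to rat 5 to rat 1 with the scaling.

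How far genes of 1 role group varied together is given here as a description. The groups follow symbol and role and are not lists of the subunits of 1 complex. The eEF1 group holds Eef1e1, that of eIF2 and eIF2B holds Eif2a and Eif2d, and the cap complex group holds Eif4a3. Over all 1596 pairs of measured factor genes the median r across the 10 rats was 0.21, and over all pairs of tested probe sets it was 0.08. It was 0.71 within the eEF1 genes, 0.49 within eIF3, 0.30 within the cap complex and 0.22 within eIF2 and eIF2B. It was -0.03 within the eIF1 family, -0.08 within eIF5A, eIF5B and eIF6, and -0.09 within eEF2 and the other elongation genes. These points share arrays and their overall level, and after quantile normalization the medians of the first 4 groups were 0.28, 0.23, 0.24 and 0.17, against 0.10 for the set and 0.01 for all probe sets.

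Of 6 pairs of paralogues named for comparison, 4 had both genes measured, and 1 passed an adjusted permutation p of 0.05 for r. Eif4g1 and Eif4g3, both scaffolds of the cap complex, had r = 0.82 (permutation p = 0.00384, adjusted p = 0.0154 over 4 pairs, two-sided, n = 10) and rho = 0.79 (permutation p = 0.00861, adjusted p = 0.0344). Both were low in rats 1 and 8, at 9.73 and 9.73 for Eif4g1 and 10.66 and 10.72 for Eif4g3. Without these rats r was 0.61, and the call ended without rat 1 (r = 0.76, adjusted permutation p = 0.073), without rat 8 (r = 0.78, adjusted permutation p = 0.0536) and when each gene's probe sets were averaged (r = 0.67, adjusted permutation p = 0.136).

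Eif5a and Eif5a2 had r = 0.56 (permutation p = 0.0943, adjusted p = 0.147) and rho = 0.73 (permutation p = 0.0205, adjusted p = 0.041), with r = 0.31 without rats 6 and 7. With single rats left out their r ran from 0.45 to 0.65. Eif4a1 and Eif4a2 had r = 0.54 (permutation p = 0.11, adjusted p = 0.147), rho = 0.39 (permutation p = 0.263, adjusted p = 0.351) and r = 0.29 without rats 2 and 8, and their r turned to -0.40 after quantile normalization. Eef1a1 and Eef1a2 had r = 0.46 (permutation p = 0.176, adjusted p = 0.176), rho = 0.24 (permutation p = 0.517, adjusted p = 0.517), and r = -0.59 without rats 3 and 5, so that their positive r rested on the low values of those rats.

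Each behaviour was taken in turn as the predictor of the log2 values of all 15521 probe sets in limma, and slopes are given in log2 units for 1 SD of the score. No factor gene passed a Benjamini-Hochberg adjusted p of 0.05 for any of the 5 behaviours, and neither did any other probe set (0% called). The median slope of the 57 genes was -0.0042 for startle (all probe sets -0.015), 0.018 for locomotion (0.014), 0.012 for sugar feeding (0.0082), -0.0067 for prepulse inhibition (-0.010) and -0.034 for the plus maze (-0.014). For the 4 scores measured in 10 rats the 95% intervals of all 57 slopes lay between -0.24 and 0.25, and 53 to 55 of them lay within 0.2 of 0. The number of arrays limits this precision: in data simulated for these scores, slopes of 0.1 were recovered for 4% to 14% of the altered probe sets, slopes of 0.2 for 32% to 48% and slopes of 0.4 for 88% to 92%. The simulated probe sets had independent normal noise, and slopes of 0.1 to 0.8 were planted in the same data, which eases the adjusted threshold for the smaller ones. In the arrays probe sets vary together and none was called, so these shares may be too high for them.

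**Figure D4:**
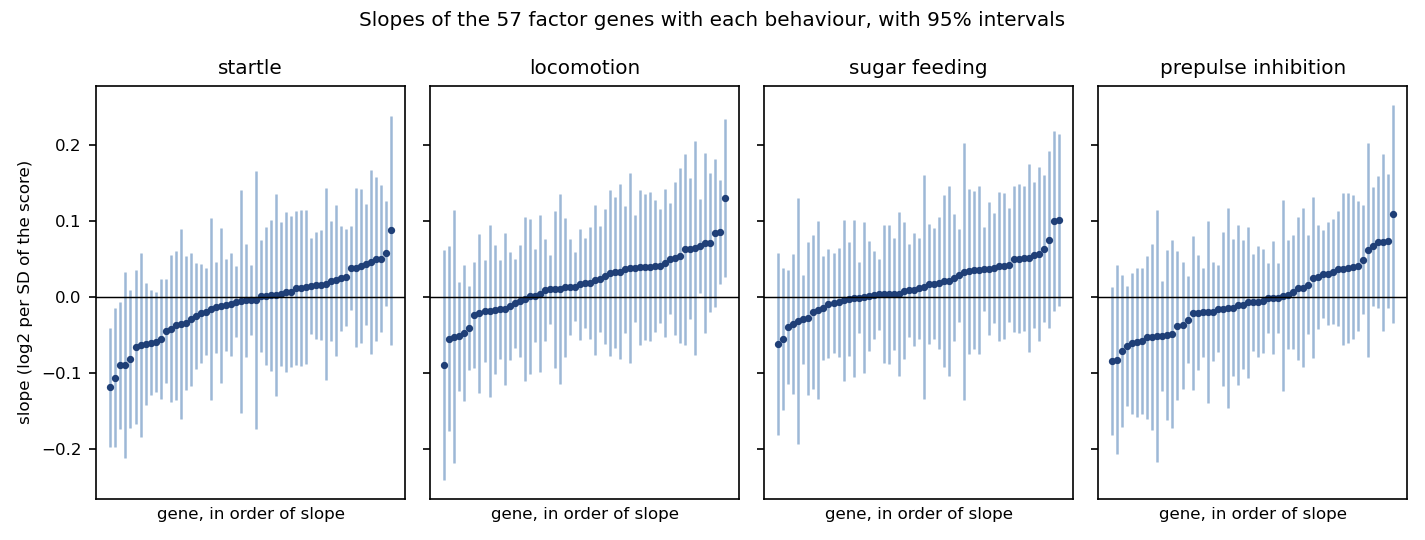
Slopes of the 57 factor genes (log2 per SD of the score, vertical axis) with startle, locomotion, sugar feeding and prepulse inhibition, each panel in order of slope. Points are limma slopes over 10 rats and bars their 95% intervals, which lie between -0.24 and 0.25 in the 4 panels.

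With startle, the acoustic reflex, 3 of the 57 genes (5.26%) had an unadjusted p under 0.05, against 5.59% of all probe sets, and all 3 slopes were negative, as in 4.3% of all. Eif5b had -0.12 ± 0.04 (SE, n = 10; limma p = 0.00682, adjusted p = 0.808). Its values were 10.68 and 10.55 in rats 1 and 2, which had the lowest startle scores, and 10.17 to 10.38 in the others; without rat 1 the slope was -0.079. Its other probe sets had slopes of -0.041 and -0.024 (limma p = 0.160 and 0.682). Eif3c had -0.11 ± 0.04, with -0.059 without rat 7 and -0.021 on its other probe set, and Eif4e3, a cap-binding relative of eIF4E, had -0.090 ± 0.038, or -0.033 without rat 2. Of the positive slopes those of smallest p were Eif3k at 0.058, Eif2b2 at 0.039 (0.020 without rat 1) and Eif2b3 at 0.088 (0.030 without rat 2). Positive slopes were found for 27 of the 57 genes (47.4%, against 37.7% of all probe sets) as deposited and for 39 (68.4%, against 56.6%) after quantile normalization, so the scaling moved both shares.

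With locomotion, 3 of 57 (5.26%, against 2.93%) had an unadjusted p under 0.05, all with positive slopes, as in 2.31% of all probe sets. Eif4ebp2 had 0.13 ± 0.05 (SE, n = 10; limma p = 0.0185, adjusted p = 1.00). The most active rats, 4 and 1, had its highest values (8.60 and 8.69), and rats 9 and 8, which moved little, its lowest (8.01 and 8.27), while rat 10, the least active, had 8.39. Eef1akmt2, a lysine methyltransferase that acts on eEF1A, had 0.086 ± 0.031 (0.043 without rat 4), and Eif4enif1, the nuclear import factor of eIF4E, 0.067 ± 0.028. The negative slopes of smallest p were those of Eif2b2 (-0.040, or -0.021 without rat 1), Eif3k (-0.051) and Eif2b3 (-0.089, or -0.039 without rat 10). Positive slopes numbered 40 of 57 (70.2%, against 65.4% of all probe sets) as deposited and 29 (50.9%, against 46%) after quantile normalization.

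The level of the hybridisation controls, RNAs added in known amount to each array, moved with locomotion (r = 0.73, permutation p = 0.0155, adjusted p = 0.062 over 4 behaviours; rho = 0.87, permutation p = 0.00226, adjusted p = 0.00904; n = 10; r = 0.77 without rats 2 and 10). With that level as a covariate the locomotion slopes of Eif4ebp2, Eef1akmt2 and Eif4enif1 were 0.14, 0.072 and 0.019. The slope of Eif2b3 with locomotion turned to 0.099, and that with startle to -0.0054. Eif2b3 itself had a slope of -0.19 ± 0.05 (SE, n = 10; limma p = 0.00192, adjusted p = 0.551) per SD of the control level. It was highest in rat 10, where the controls were lowest, and lowest in rat 2, where they were highest. For the control level 6 of 57 genes (10.5%) had an unadjusted p under 0.05, against 7% of all probe sets, 5 with positive slopes (5.79% of all) and 1 with a negative slope (1.21%). By limma 0 passed the adjusted threshold, as for all probe sets (0%). Eif4enif1 had 0.080 ± 0.024, the positive slope of smallest p.

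**Figure D5:**
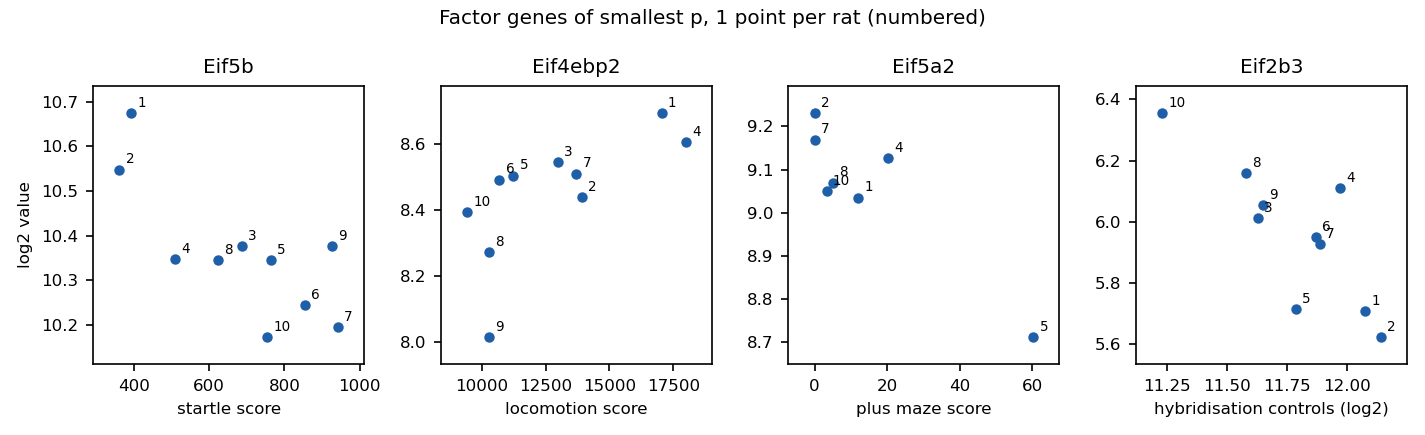
Log2 values (vertical axes) of Eif5b against startle, Eif4ebp2 against locomotion, Eif5a2 against the plus maze score and Eif2b3 against the level of the hybridisation controls, with 1 numbered point per rat. Rats 1 and 2 stand highest for Eif5b, and rat 5 alone lies far right and low for Eif5a2.

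With sugar feeding, 0 of 57 genes had an unadjusted p under 0.05 (2.13% of all probe sets did, and 0 passed the adjusted threshold by limma). Eif2b1 had 0.10 ± 0.05 (SE, n = 10; limma p = 0.0736, adjusted p = 1.00), Eif4ebp2 0.10 ± 0.05 and Eif2b5 0.037. Without rat 5 the slopes of Eif2b1 and Eif2b5 were 0.051 and 0.0071, and without rat 9 that of Eif4ebp2 was 0.062. The negative slopes of smallest p were those of Eif2ak3 (-0.055), Eif3k (-0.039) and Eefsec (-0.061). They were -0.026 and -0.017 for Eif2ak3 and Eif3k without rat 3, and -0.018 for Eefsec without rat 8. Of the 57 genes 39 had positive slopes as deposited (68.4%, against 58.4% of all probe sets) and 30 after quantile normalization (52.6%, against 47.4%). They included 9 of 11 eIF3 genes as deposited and 5 of 11 after quantile normalization, and 5 of 6 eEF1 genes under both. All 8 genes with a pyrimidine run had positive slopes as deposited and with arrays centred on their medians (median 0.042 in both), and 6 of 8 after quantile normalization, against 28 of 45 genes without a run as deposited. With 1 rat left out, 6 to 8 of the 8 had positive slopes, the fewest without rat 5 or rat 9. As deposited, the same 8 genes had 2 positive slopes for startle and 6 for locomotion (37.7% and 65.4% of all probe sets). They had 1 for prepulse inhibition and 1 for the plus maze (41.3% and 39.2%). The genes without a run had 22, 31, 21 and 17 of 45 for these scores in turn. After quantile normalization the counts of the 8 genes were 6, 5, 5 and 0 (56.6%, 46%, 57.1% and 48.7% of all probe sets). This split by sequence was made after earlier results were known and was not tested.

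With prepulse inhibition, 0 of 57 genes had an unadjusted p under 0.05 (7.41% of all probe sets did). Eef1akmt1, another eEF1A methyltransferase, had 0.067 ± 0.035 (SE, n = 10; limma p = 0.0845, adjusted p = 0.701), and Eif2b4, the delta subunit of eIF2B, and Eif2ak3 had 0.073 ± 0.040 and 0.072 ± 0.039. Without rat 1 the slopes of Eef1akmt1 and Eif2ak3 were 0.035 and 0.048, and without rat 4 that of Eif2b4 was 0.045. On the negative side stood Eif5b at -0.083 ± 0.044, Eif3a at -0.064 and Eef1e1 at -0.071, which were -0.026, -0.024 and -0.040 without rat 1. As deposited 23 of 57 slopes were positive (40.4%, against 41.3% of all probe sets), and after quantile normalization 39 (68.4%, against 57.1%), so that the scaling turned the balance for the factor genes and for all probe sets.

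With the plus maze score, measured in 7 rats, 3 of 57 genes (5.26%, against 6.95%) had an unadjusted p under 0.05, all with negative slopes, as in 5.74% of all probe sets. Eif5a2 had -0.15 ± 0.04 (SE, n = 7; limma adjusted p = 0.634). It was lowest in rat 5 (8.71), whose score of 60.3 stood apart from the others (0 to 20.2), and at 9.04 to 9.23 in the other 6 rats. Without rat 5 its slope was -0.028, that of Eif1ax changed from -0.11 to 0.0044, and that of Eif4g3, the positive slope of smallest p, from 0.055 to -0.0055. Eef1akmt2, next among the positive slopes, had 0.038, or 0.11 without rat 5. The other probe set of Eif5a2 had -0.14 (limma p = 0.125). All 6 eEF1 genes had negative slopes under the 3 scalings, but 5 of the 6 had positive slopes without rat 5. Slopes were positive for 19 of 57 genes as deposited (33.3%, against 39.2% of all probe sets), for 7 with arrays centred on their medians (12.3%, against 26%) and for 25 after quantile normalization (43.9%, against 48.7%). The median slope of the 57 without rat 5 was 0.0058.

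The factor genes were also set against measures of tissue make-up and activity that hold none of them. For the striatal marker score 1.81% of all probe sets passed the adjusted threshold by limma, and 0 of the 57 factor genes. Unadjusted, 4 factor genes (7.02%) against 14.7% of all probe sets had a p under 0.05, 3 with positive slopes (6.06% of all) and 1 with a negative slope (8.62%). Eif3b, a core eIF3 subunit, had 0.087 ± 0.024 (SE, n = 10; limma p = 0.00451, adjusted p = 0.115), with 8.85 and 8.82 in rats 7 and 4, which had the highest scores, and 8.55 to 8.71 in the others. Eif3c had -0.11 ± 0.04 (limma adjusted p = 0.185), or -0.039 without rat 7, and its other probe set had 0.015 (limma p = 0.691). Positive slopes numbered 42 of 57 (73.7%, against 53.1% of all probe sets), with a median of 0.022 against 0.0035 for all probe sets. They numbered 43 with arrays centred on their medians (75.4%, against 56%) and 45 after quantile normalization (78.9%, against 59.8%).

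For the meningeal score 0 of the 57 passed (0.148% of all probe sets did) and 1 had an unadjusted p under 0.05, against 3.45%. That gene was Eef2k, with a positive slope (1.44% of all had one at that p), 0.11 ± 0.04 (SE, n = 10; limma adjusted p = 1.00), highest in rats 9 and 3, as the score was. The negative slope of smallest p was that of Eif3l, -0.079 ± 0.042, or -0.044 without rat 3. The immediate-early gene score, the mean of genes that neuronal activity switches on fast, gave 0 of 57 past the adjusted threshold by limma (0.0322% of all), and 0 had an unadjusted p under 0.05, against 2.22%. Eef2 came nearest at -0.10 ± 0.05, followed on the positive side by Eefsec at 0.092 ± 0.050, or 0.048 without rat 8. For the difference between probe sets at the 3′ and 5′ ends of the actin and Gapdh transcripts, a measure of RNA length, 0 of 57 passed (0.0902% of all), and 0 had an unadjusted p under 0.05, against 10%. Some other probe sets of these genes had an unadjusted limma p under 0.05, all with negative slopes. They were those of Eif4g2 (-0.17, limma p = 0.00385), Eif1a (-0.20, limma p = 0.00772), Eif3l (-0.22, limma p = 0.00827), Eif5a2 (-0.17, limma p = 0.0222), Eif4e (-0.16, limma p = 0.0227) and Eif3c. The rest of the 21 above the level filter did not reach it. Eif3c had -0.086 ± 0.045 on the probe set used, a slope that rested on rat 7 and was 0.012 without it. Its other probe set had -0.074 (limma p = 0.0271). Eif4a3 had the positive slope of smallest p, 0.045 ± 0.030, or 0.010 without rat 7.

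Other genes that act on these factors, a list of 64 covering mTOR and stress signalling, poly(A)-binding, release, recycling and mitochondrial factors, were read from the same fits. On the array were 57 and above the filter 53. Of these 0 passed the adjusted threshold for a behaviour by limma, and 3, 5, 2, 3 and 4 had an unadjusted p under 0.05 for startle, locomotion, sugar feeding, prepulse inhibition and the plus maze, where 5.59%, 2.93%, 2.13%, 7.41% and 6.95% of all probe sets did. Rictor, a subunit of the mTOR complex that lacks Raptor, had the smallest p for startle (-0.11 ± 0.03, SE, n = 10) and for locomotion (0.10 ± 0.03). For the striatal score 1 of 53 passed, Atf5, a transcription factor of the stress response (0.21 ± 0.04; limma adjusted p = 0.0432). That call ended without each of 8 of the 10 rats in turn (it held without rats 6 and 10), with no level filter, with an unmoderated fit and with ranks of the score.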

How the data were processed

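The deposited values are log2 expression per probe set, made by the authors with GCRMA (background correction by probe sequence, normalization and summary of probes) under R 2.6.2, per the submitters' processing notes (GCRMA version not given in the sources used here). Of 31099 probe sets 57 were controls and were left out. Genes were named from the platform annotation (20826 probe sets with 1 symbol, 436 with several, 9780 with none); all 61 factor genes matched RefSeq, and 5 probe sets that name an Eif or Eef gene among several symbols were not used.

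The 50% of probe sets of highest mean entered limma 3.58.1 (R 4.3.3; lmFit, eBayes), 1 score at a time scaled to an SD of 1. Tests were two-sided and adjusted by Benjamini-Hochberg over the 15521 probe sets. The limma p-values set each slope against the spread between these rats that the slope leaves. The fit was tested on simulated data. Correlations used 1e+05 permutations. Marker scores are means of centred log2 values, and rats are numbered by the labels' replicate order. The number of arrays limits the precision.

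Genes named with each behaviour are the 3 of smallest p in each direction (2 for the plus maze); for other measures, the 1 of smallest p in each direction; also the 6 of widest and 4 of narrowest span, and a panel by role. Eif3m, Rictor and Atf5 were chosen after their values were seen. The members and lists were chosen with earlier results of these data known. Alternatives were other filters, scalings, covariates, fits, probe set rules and leaving out each rat. Sequences are from RefSeq, GRCr8.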

Additional observations from a re-analysis of the deposited data

Results flagged for a closer look

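In 5 of the 61 genes 1 rat stood apart from the other 9 by a gap above Dixon's 95% critical value for 10 samples; chance gives about 1 in 20 groups. Eif3c was lowest in rat 7 at 10.63 log2, with the next rat at 10.95, while its other probe set spanned 1.23-fold over all rats. Eif4e3 was highest in rat 2 at 8.74, with the next at 8.46, and Eif2s1 was highest in rat 2 at 10.37, with the next at 10.19. Both remaining genes lay below the level filter: Eif4e2 was highest in rat 10 at 2.31 and Eef1akmt4 highest in rat 7 at 3.00.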

How the results depend on the processing

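The number of factor genes past the adjusted threshold was 0 for all 10 measures in 104 comparisons under other settings and in 97 that left out 1 rat. The slopes of named genes kept their direction in 409 of 416 comparisons under other settings and in 365 of 368 that left out 1 rat. No paired analysis was possible because the rats form 1 group with 1 array each.

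After quantile normalization the median slope was 0.023 for startle, 0.00021 for locomotion, 0.014 for prepulse inhibition and -0.0048 for the hybridisation controls (0.0027 with arrays centred on their medians). With the control level as a covariate it was 0.00073 for locomotion. Leaving out 1 rat gave medians of -0.013 to 0.0021 for startle, 0.0077 to 0.027 for locomotion, 0.0044 to 0.035 for sugar feeding, -0.019 to 0.0033 for prepulse inhibition, -0.039 to 0.0058 for the plus maze and 0.018 to 0.043 for the controls. For the striatal, meningeal and immediate-early scores and the 3′ minus 5′ difference it gave 0.013 to 0.033, -0.025 to 0.0050, -0.023 to 0.0081 and -0.043 to 0.0077. With the 4 scores in 1 model the slope of Eif2b3 with startle was -0.12, and with sugar feeding those of Eif3k, Eefsec and Eif4ebp2 were 0.020, 0.079 and -0.037. With the control level as a covariate Eif2b3 had -0.0054 for startle and 0.099 for locomotion. Without the 3 rats of highest striatal score Eif3c had 0.013 with the 3′ minus 5′ difference. Leaving out 1 rat gave -0.11 to 0.012 for that slope, and for the plus maze -0.13 to 0.0044 for Eif1ax and -0.0055 to 0.093 for Eif4g3. The median SD was 0.12 with no filter, 0.11 after quantile normalization and 0.11 with a gene's probe sets averaged, and 0.12 to 0.13 when 1 rat was left out. The r of Eif4g1 and Eif4g3 was 0.67 with averaged probe sets and 0.76 to 0.96 without 1 rat, and the r of Eif4a1 and Eif4a2 was -0.40 after quantile normalization. The cause was not tested. The alternatives for spans, pairs and the further list were chosen after seeing the data.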

Other observations

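On second probe sets of the same genes, 21 in 15 genes passed the level filter, and 13 to 16 of the 21 had a slope of the same sign as the probe set used, depending on the measure. For startle 15 of 21 had the same sign, and for sugar feeding 13 of 21. Some had an unadjusted limma p under 0.05 for a behaviour. For startle they were of Eif3a (-0.16, limma p = 0.0334) and Eif2ak1 (-0.088, limma p = 0.0113). For locomotion they were of Eif3a (0.18, limma p = 0.00831) and Eif1a (0.080, limma p = 0.0294), and for prepulse inhibition of Eif4g1 (-0.11, limma p = 0.0383). In turn the probe sets used had -0.062, 0.016, 0.041, 0.023 and 0.038. None passed the adjusted threshold.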
